A study of Mus musculus with 6 samples.

Results

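The transcription factor p53, its regulators, a set of genes known as its targets and the inhibitors of cyclin-dependent kinases (CDKs) were followed in the proximal epididymis of mice given busulfan. The 36 genes were taken by symbol from a table of 24346 genes, and 34 of them had the mean of at least 1 FPKM over all libraries that testing required. FPKM count sequenced fragments relative to transcript length and to the size of the library, so levels of different genes can be set beside each other. The libraries came from the initial segment (IS) and caput of wild-type males aged 12 weeks, injected intraperitoneally with busulfan, an alkylating agent that crosslinks DNA and depletes male germ cells, or with DMSO, its solvent. Each group had 3 libraries. The sources used here give neither the dose nor the interval to collection, and nothing says that each library is a separate mouse, so p-values measure the spread between these libraries, which may be technical in part. Action of the drug on the epididymis and action through loss of testicular germ cells cannot be told apart in this design.

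In undamaged cells p53 is kept low by MDM2, a ubiquitin ligase and itself a p53 target, and by the related protein MDM4, which masks the transactivation domain of p53. DNA damage kinases release p53 from both, largely without a change in Trp53 mRNA, and p53 then raises genes for cell cycle arrest, DNA repair, control of growth signalling and cell death. Several of these genes also answer to other inputs, among them growth factor signalling, the integrated stress response and FOXO factors, so no member is a readout of p53 alone.

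Markers of the tissue itself changed most. Of 21 genes of initial segment and caput epithelium, 14 were lower with busulfan and 5 higher, with a median log2 change of -1.32, and their summed level was 115000 to 121000 FPKM against 84400 to 87600. The lipocalin gene Lcn8 went from 12300 ± 457 FPKM under DMSO to 26.5 ± 3.67 FPKM under busulfan (means with SD over 3 libraries each) and Cst8, of the cystatin family, from 1780 ± 44.2 to 10.9 ± 4.14 FPKM. Lcn9 fell from 7290 ± 178 to 12.7 ± 11.5 FPKM, with 0.249 FPKM in busulfan replicate 1, and Rnase10 from 3380 ± 374 to 15.5 ± 6.31 FPKM. Gpx5, which encodes a glutathione peroxidase secreted by the caput, was lower but stayed abundant, at 35300 ± 656 and 28600 ± 1790 FPKM (limma adjusted p = 0.044). Among the 5 that were higher, Clu went from 7050 ± 1010 to 14700 ± 850 FPKM and Lcn5 from 5500 ± 1600 to 10800 ± 2770 FPKM. Summed FPKM ran from 707219 to 732495 in the DMSO group and from 625087 to 666662 in the busulfan group. The spacing of low values put depth very roughly at 11900000 to 14000000 fragments per library. Markers of other cell types also moved between the groups. Of 13 endothelial markers, 10 were lower and none higher with busulfan, and their summed level was 170 to 183 FPKM against 92.3 to 107. Of 16 fibroblast and matrix genes, 9 were lower and none higher (678 to 852 FPKM against 428 to 584), and of 11 tested spermatid and sperm transcripts 5 were lower and 2 higher (summed over all 16 listed, 74.3 to 95.3 FPKM against 44.2 to 73.7). Of 8 smooth muscle genes 1 was lower, Actg2, which went from 1440 ± 110 to 46.8 ± 6.0 FPKM and set the fall of their sum (1930 to 2080 FPKM against 532 to 636). The other 7 did not pass, among them Acta2 at 250 ± 15.1 and 262 ± 16.8 FPKM. Of 11 tested macrophage and dendritic cell markers 1 was higher and 3 lower (263 to 292 FPKM against 218 to 298). Lymphocyte markers summed to 3.46 to 5.43 FPKM and 3.88 to 4.73 FPKM. The share lower was 66.7% of the epithelial, 76.9% of the endothelial and 56.2% of the fibroblast and matrix genes tested. It was 45.5% for sperm, 27.3% for macrophage and dendritic cell and 12.5% for smooth muscle genes, against 22.1% of all tested genes. None of these markers was at 0 in every library. Their part in the changes below was not tested, and in whole tissue fewer cells of a type and less RNA per cell cannot be told apart.

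Stretches of genome before the transcription start are shown for 6 of the genes, since they place the letters p53 recognises beside genes that rose (Cdkn1a, Ccng1, Ddit4), fell (Ddit4l, Ckap2) or did not pass the test (Mdm2). They are from RefSeq's promoter windows on GRCm38.p6, which run from 250 bases before a start to 50 after it, cut where an annotated exon begins, written 5′ to 3′ on the gene's strand. Sites outside these windows, in introns or farther away, were not searched, for Mdm2 or any other gene. Capitals mark each match to the p53 consensus decamer, whose reverse complement is the same pattern, so both strands were searched. The decamer is a half-site, and a full p53 site holds 2 of them, so a single match is not a full site. Only exact matches are marked and counted, and half-sites with a mismatch were not searched.
Cdkn1a: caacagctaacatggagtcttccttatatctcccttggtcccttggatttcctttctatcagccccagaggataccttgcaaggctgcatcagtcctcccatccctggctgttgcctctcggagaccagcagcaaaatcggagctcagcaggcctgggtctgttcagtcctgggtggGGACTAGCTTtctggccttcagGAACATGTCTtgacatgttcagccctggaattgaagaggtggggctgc
Ccng1: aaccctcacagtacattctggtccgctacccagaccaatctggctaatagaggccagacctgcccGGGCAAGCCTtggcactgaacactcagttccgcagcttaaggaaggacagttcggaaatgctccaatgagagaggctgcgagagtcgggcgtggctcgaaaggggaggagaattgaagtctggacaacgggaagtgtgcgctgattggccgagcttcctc
Mdm2: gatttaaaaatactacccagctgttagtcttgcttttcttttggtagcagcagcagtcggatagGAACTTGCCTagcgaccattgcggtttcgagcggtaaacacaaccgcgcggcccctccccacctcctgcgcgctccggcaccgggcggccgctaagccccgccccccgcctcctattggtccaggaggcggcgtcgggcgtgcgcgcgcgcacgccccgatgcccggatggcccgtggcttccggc
Ddit4: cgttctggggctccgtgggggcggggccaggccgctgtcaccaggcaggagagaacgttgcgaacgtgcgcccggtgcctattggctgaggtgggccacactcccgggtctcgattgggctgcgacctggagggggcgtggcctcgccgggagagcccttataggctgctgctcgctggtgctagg
Ddit4l: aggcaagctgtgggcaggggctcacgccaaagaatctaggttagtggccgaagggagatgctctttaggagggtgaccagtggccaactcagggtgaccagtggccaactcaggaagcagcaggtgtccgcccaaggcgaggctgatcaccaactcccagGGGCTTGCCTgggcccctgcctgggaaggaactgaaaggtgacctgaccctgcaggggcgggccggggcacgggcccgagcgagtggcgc
Ckap2: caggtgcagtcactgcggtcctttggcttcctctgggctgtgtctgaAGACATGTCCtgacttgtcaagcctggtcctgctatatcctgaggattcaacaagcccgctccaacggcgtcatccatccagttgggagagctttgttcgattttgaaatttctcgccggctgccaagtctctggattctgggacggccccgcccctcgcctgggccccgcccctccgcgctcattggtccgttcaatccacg
The Cdkn1a stretch is chr17:29090729-29090975 (plus strand), that of Ccng1 chr11:40755312-40755536 (minus), that of Mdm2 chr10:117710759-117711008 (minus), that of Ddit4 chr10:59951835-59952020 (minus), that of Ddit4l chr3:137623422-137623671 (plus) and that of Ckap2 chr8:22185820-22186069 (minus). The Cdkn1a stretch lies before its most upstream RefSeq start, which was chosen for display, and windows at any other start are not shown. It held 2 exact decamers, beginning 73 and 51 bases before that start and separated by 12 bases. The bases directly after the second decamer, left in lower case, depart from the pattern at their first base only. Ddit4 held none here, while Ddit4l, its paralog that changed the opposite way, held 1; the GENCODE model of Ddit4l begins upstream of the RefSeq start used here. RefSeq gave a window for 30 of the 36 genes, and 13 of these (43.3%) had at least 1 decamer in a window, against 9.55% of all 27025 genes with a window. Those 13 comprised 4 of the 12 genes with a window that rose (Cdkn1a, Ccng1, Aen and Polk). The others were 3 of the 6 that fell (Ddit4l, Ckap2 and Gadd45a) and 6 of the 11 that did not pass. Of all genes with a window, 20 had 2 decamers at most 13 bases apart, and Cdkn1a was the only listed gene among them. CCAAT, the box read by the factor NF-Y, was found on either strand in 21 of the 30 genes (70.0%, against 41.1% of all), and TTTGAA, a form of the cell cycle element CHR, in 4 (13.3%, against 20.2%). CACGTG, the E-box, was in 8 (26.7%, against 8.09%) and TGACGTCA, the cAMP response element, in 4 (13.3%, against 2.03%). None of these shorter words lies wholly within another. The listed genes were selected partly as p53 targets, so these shares describe the list and were not tested. All genes with a window were not matched to the list for expression here or for the number of windows per gene.

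Busulfan libraries held more mRNA of 14 of the 34 tested genes and less of 7, while 13 did not pass the threshold (limma on log2(FPKM + 1) over all tested genes, Benjamini-Hochberg adjusted p below 0.05). As shares, 61.8% of the tested genes on the list passed, against 42.8% of all 12848 tested genes. The higher genes were 41.2% of the list against 20.8% of all tested genes, and the lower genes 20.6% against 22.1%. The share lower was therefore close to the background. Median log2 change was 0.07 over the list and -0.003 over all tested genes. The groups did not overlap for 25 of the 34 genes (73.5%), against 54.6% of all tested genes. Most changes were modest. The 21 that passed had a median absolute log2 change of 0.58, against 0.42 for all genes that passed, and 3 of them reached 1 on the log2 scale (Cdkn1a upward, Ddit4l and Cdkn2b downward). Eda2r and Psrc1 averaged below 1 FPKM in the DMSO group and were tested only because of their busulfan level, so the count of 14 includes 2 genes that the filter favoured. Ckap2 is the mirror case, at 0.937 FPKM with busulfan and tested only because of its DMSO level, so the count of 7 includes 1.

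**Figure D1:**
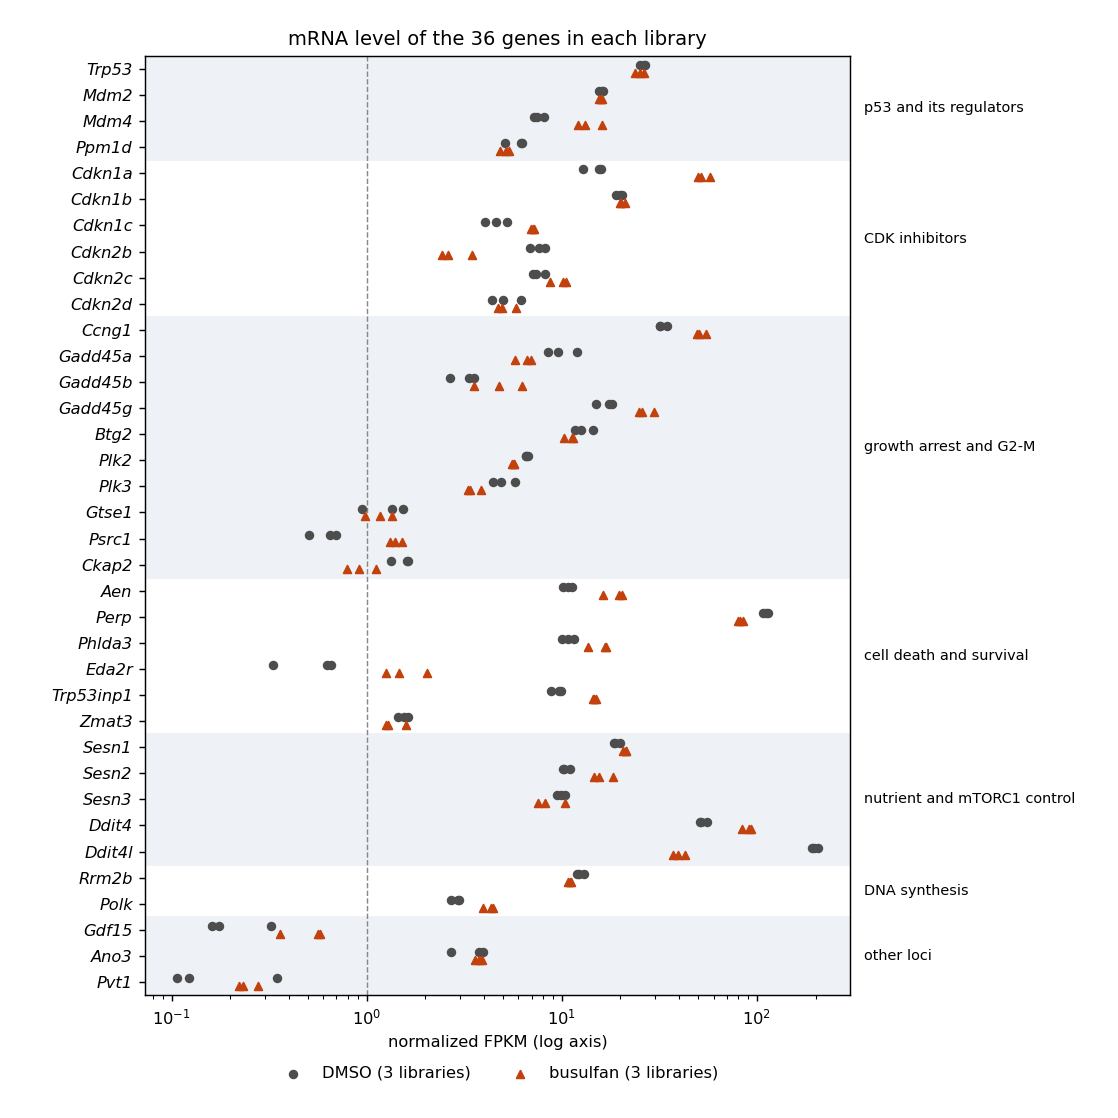
Normalized FPKM (log axis) of each of the 36 genes in the 3 DMSO libraries (circles) and the 3 busulfan libraries (triangles), ordered by role; the dashed line marks 1 FPKM. Cdkn1a lies at 12.8 to 15.9 FPKM in DMSO and 49.9 to 57.2 with busulfan, and Ddit4l at 192 to 205 and 37.3 to 42.7.

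**Figure D2:**
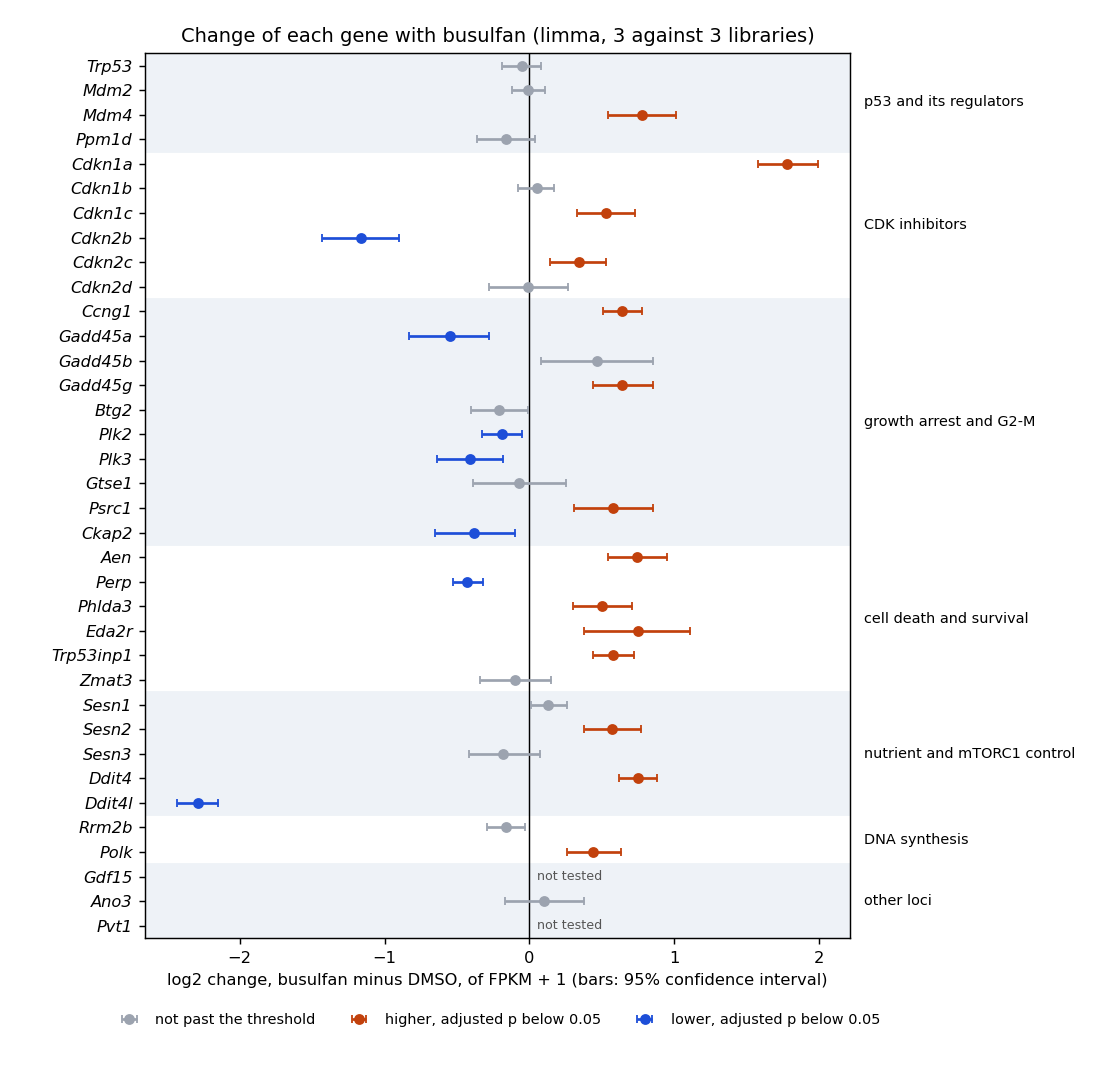
Log2 change of FPKM + 1, busulfan minus DMSO, for the 34 tested genes, with 95% confidence intervals from limma. Colour shows whether the adjusted p was below 0.05: 14 genes were higher, 7 lower and 13 did not pass, with Cdkn1a at 1.78 and Ddit4l at -2.29.

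The mRNA of p53 itself and of its main ligase did not move detectably, while that of MDM4 rose. Trp53 (NCBI gene 22059; chromosome 11, 69580359 to 69591873 on GRCm38, the build of all gene positions here) stood at 26.4, 26.6 and 25.2 FPKM under DMSO and 26.5, 25.1 and 23.7 FPKM under busulfan, in the order of the replicate numbers kept throughout. Mdm2 stood at 15.5, 16.2 and 16.0 FPKM against 15.6, 15.8 and 16.0. For both genes the groups overlapped. The 95% interval of the log2 change ran from -0.19 to 0.08 for Trp53 (limma adjusted p = 0.48) and from -0.12 to 0.11 for Mdm2 (limma adjusted p = 0.907), so a rise of Mdm2 as large as that of Cdkn1a, Aen or Ccng1 lies outside the interval. Mdm4 (NCBI gene 17248; chromosome 1, 132959484 to 133030561) stood at 7.48, 8.13 and 7.17 FPKM against 16.1, 13.2 and 12.1. Every busulfan library lay above every DMSO library, a 1.82-fold rise with a log2 change of 0.78 ± 0.10 (SE; limma adjusted p = 0.00053). Ppm1d, which encodes the phosphatase WIP1 that switches off p53 and its kinases, stood at 6.24, 6.2 and 5.13 FPKM against 5.2, 4.8 and 5.34, with overlapping groups (limma adjusted p = 0.172). Within a library, Mdm4 was 0.447 to 0.503 times as abundant as Mdm2 in the DMSO group and 0.759 to 1.03 times with busulfan. A processed pseudogene, Trp53-ps, matches Trp53 over 353 bases at 97.7% identity, so a small share of its fragments could be placed on either locus.

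The CDK inhibitors divided into rising, falling and steady genes. The CIP/KIP proteins p21, p27 and p57 bind cyclin-CDK complexes, whereas the INK4 proteins bind CDK4 and CDK6 alone and keep them from D-type cyclins. Of the 6 genes, 3 rose, 1 fell and 2 did not pass. Cdkn1a, which encodes p21 (NCBI gene 12575; chromosome 17, 29090976 to 29100727), stood at 15.6, 15.9 and 12.8 FPKM under DMSO and at 51.8, 49.9 and 57.2 FPKM under busulfan. The lowest busulfan library was thus above 3 times the highest DMSO library, a log2 change of 1.78 ± 0.09 (SE; limma adjusted p = 2.52e-06). Among all 12848 tested genes, 14 had a larger rise on this scale. The TEC gene AC167363.2 (TEC marks models awaiting experimental proof) shares 273 bases of Cdkn1a exons on the opposite strand, 7.7% of them, and the sources used here do not give the strand setting of the authors' counting.

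Cdkn1b, which encodes p27, stood at 19.0, 19.9 and 20.3 FPKM against 19.8, 21.1 and 20.2. Its groups overlapped, and the interval of its log2 change was -0.08 to 0.17 (limma adjusted p = 0.536). Cdkn1c, the imprinted gene of p57, stood at 5.22, 4.59 and 4.04 FPKM against 7.14, 7.2 and 6.92 and rose 1.54-fold (limma adjusted p = 0.00185). An antisense gene, Gm44732, shares 625 bases of its exons (30.7%), so the level of Cdkn1c is uncertain to that extent. In relation to Cdkn1b, Cdkn1a was the less abundant mRNA in each DMSO library (ratios 0.821, 0.797 and 0.629) and the more abundant in each busulfan library (2.61, 2.36 and 2.83).

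The INK4 genes did not move together. Cdkn2b, which encodes p15 and is known for its induction by TGF-β (NCBI gene 12579; chromosome 4, 89306299 to 89311039), stood at 8.17, 6.85 and 7.67 FPKM against 3.47, 2.62 and 2.44. It fell 2.66-fold, with a log2 change of -1.16 ± 0.11 (SE; limma adjusted p = 0.000111) and no overlap of the groups. Cdkn2c, which encodes p18, stood at 7.08, 8.23 and 7.36 FPKM against 10.2, 10.5 and 8.75, a 1.3-fold rise (limma adjusted p = 0.0142) whose call was lost without busulfan replicate 2 (limma adjusted p = 0.0562). Cdkn2d, which encodes p19 of the INK4 family, stood at 5.02, 6.18 and 4.38 FPKM against 4.91, 4.69 and 5.83, with overlapping groups (limma adjusted p = 0.974). Cdkn2b and Cdkn2c were about equally abundant in DMSO (ratios 0.833 to 1.15), and Cdkn2b was the scarcer in all busulfan libraries (0.25 to 0.34). Summed over the 6 genes, CDK inhibitor mRNA was 56.5 to 61.6 FPKM with DMSO and 96.0 to 101 FPKM with busulfan. The share of Cdkn1a in that sum was 22.6% to 25.9% and 52.0% to 56.5%, so Cdkn1a became the most abundant of the 6.

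**Figure D3:**
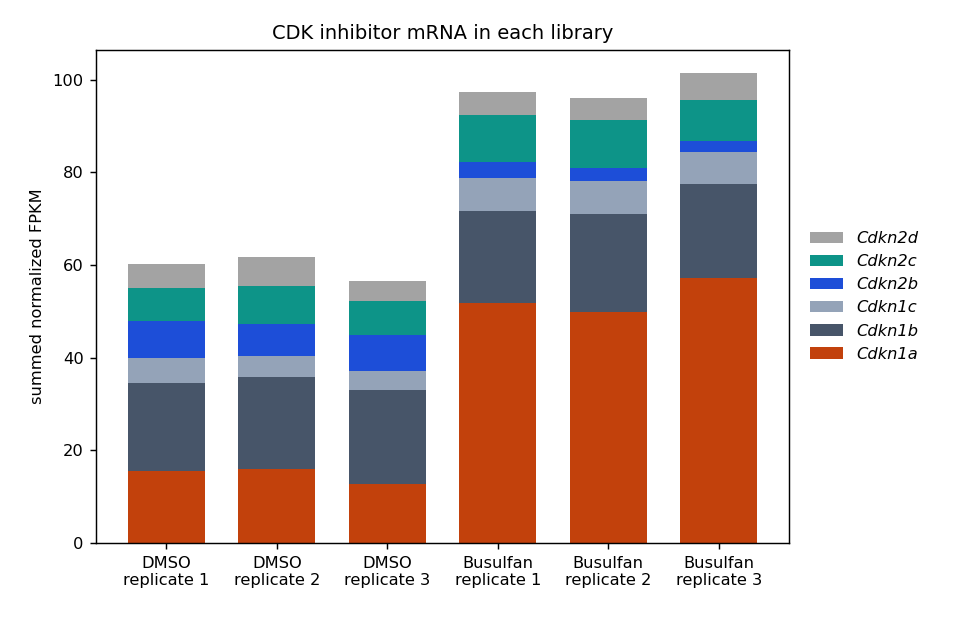
Stacked normalized FPKM of the 6 CDK inhibitor genes in each of the 6 libraries, 1 bar per library, axis from 0. The bars reach 56.5 to 61.6 FPKM in the DMSO group and 96.0 to 101 FPKM in the busulfan group, and the Cdkn1a segment accounts for most of the difference.

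Among the 10 growth arrest and mitotic members, 3 rose, 4 fell and 3 did not pass. Ccng1, which encodes cyclin G1, a p53 target that recruits a phosphatase to MDM2, was the most abundant of them. It stood at 31.8, 31.8 and 34.5 FPKM against 49.3, 50.7 and 55.1 and rose 1.58-fold with no overlap (log2 change 0.64 ± 0.06, SE; limma adjusted p = 8.04e-05). The GADD45 proteins, small acidic proteins that bind the kinase MEKK4 and p21, went separate ways. Gadd45a, the classical p53 target of the family, stood at 9.52, 8.47 and 12.0 FPKM against 6.61, 6.96 and 5.77 and fell 1.55-fold (limma adjusted p = 0.00687). Gadd45g stood at 17.4, 14.9 and 18.1 FPKM against 25, 25.7 and 29.6 and rose 1.6-fold (limma adjusted p = 0.000732). Gadd45b stood at 3.53, 3.34 and 2.66 FPKM against 4.78, 3.55 and 6.25, where the groups barely separated and the test did not pass (limma adjusted p = 0.0524). It passed without busulfan replicate 2, its lowest busulfan library (limma adjusted p = 0.0119). Gadd45a was therefore lower, and Gadd45g higher, in the same libraries, and the ratio of Gadd45g to Gadd45a went from 1.51 to 1.82 in DMSO to 3.69 to 5.13 with busulfan. Gadd45a shares 337 bases of exon (19.1%) with E230016M11Rik on the opposite strand, which stood at 1.39 ± 0.184 and 1.24 ± 0.351 FPKM.

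The polo-like kinases of the stress-responsive kind were slightly lower. Plk3 stood at 4.46, 5.74 and 4.88 FPKM against 3.85, 3.32 and 3.38 and fell 1.43-fold (limma adjusted p = 0.0112). Plk2 stood at 6.52, 6.53 and 6.68 FPKM against 5.66, 5.56 and 5.66. Although its groups were tight and apart, the difference was 1.17-fold, and its call (limma adjusted p = 0.0347) was lost on leaving out any 1 library and with the replicate number as a block. Btg2, an antiproliferative cofactor of mRNA deadenylation, stood at 11.7, 12.5 and 14.5 FPKM against 11.3, 11.4 and 10.3 and did not pass (limma adjusted p = 0.0797), but passed without DMSO replicate 1 (limma adjusted p = 0.0429).

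Members that act on microtubules or in G2 were near 1 FPKM. Psrc1, which encodes a spindle protein, stood at 0.698, 0.507 and 0.645 FPKM against 1.4, 1.32 and 1.51, a 2.29-fold rise (limma adjusted p = 0.00488). Ckap2, which encodes a microtubule-binding spindle protein, stood at 1.63, 1.6 and 1.33 FPKM against 0.795, 0.908 and 1.11, a 1.62-fold fall. Its limma adjusted p of 0.0333 was above the threshold without DMSO replicate 1 or 2, without busulfan replicate 1 or 2 and with the replicate block (0.0965 at most). Gtse1, whose product binds p53 and restrains it in G2, stood at 0.943, 1.54 and 1.35 FPKM against 0.978, 1.17 and 1.35, with overlapping groups (limma adjusted p = 0.729). At the rough depth above, the Psrc1 values stand for about 14 to 18 fragments per DMSO library and 35 to 36 per busulfan library, so these genes rest on few fragments.

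Of the 6 cell death and survival members, 4 rose, 1 fell and 1 did not pass. Aen, which encodes a nuclear exonuclease active in apoptosis, stood at 11.3, 10.2 and 10.8 FPKM against 16.3, 19.7 and 20.4 (1.74-fold, limma adjusted p = 0.000302). Trp53inp1, which encodes a stress protein that promotes p53 phosphorylation and autophagy, stood at 8.81, 9.68 and 9.93 FPKM against 14.5, 14.9 and 14.6 (1.55-fold, limma adjusted p = 0.000174). Phlda3, whose product restrains the kinase AKT by competing for membrane lipids, stood at 11.5, 10.8 and 10 FPKM against 13.7, 16.9 and 16.6 (1.46-fold, limma adjusted p = 0.00249). In all 3 genes the busulfan libraries lay wholly above the DMSO libraries. Eda2r, which encodes a receptor for ectodysplasin A2 on the X chromosome, stood at 0.33, 0.628 and 0.654 FPKM against 1.25, 2.03 and 1.47. That is a 2.95-fold rise of the mean, although the log2 change of FPKM + 1 was only 0.75 ± 0.16 (SE; limma adjusted p = 0.00592), since the added 1 weighs heavily at such levels.

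Perp, which encodes a desmosome protein of stratified and glandular epithelia and a p53 effector, went the other way. It stood at 108, 114 and 112 FPKM against 85.0, 82.4 and 80.3, a 1.35-fold fall with no overlap (limma adjusted p = 0.000214). Perp is also a target of the p53 relative p63, and Trp63, a basal cell marker here, stood at 22.2 ± 2.69 FPKM in DMSO and 14.5 ± 0.576 with busulfan (limma adjusted p = 0.00117). The basal keratin gene Krt5 rose from 50.5 ± 2.29 to 69.2 ± 3.68 FPKM (limma adjusted p = 0.000516). Of the 7 basal markers 3 were higher and 3 lower, and their part in the fall of Perp was not tested. Zmat3, which encodes an RNA-binding splicing regulator, stood at 1.44, 1.56 and 1.62 FPKM against 1.26, 1.59 and 1.29 and did not pass (limma adjusted p = 0.517).

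The sestrins and the REDD proteins restrain the growth kinase complex mTORC1, the former by binding the GATOR2 complex and the latter through the TSC complex. Of their 5 genes 2 rose, 1 fell and 2 did not pass. Ddit4, which encodes REDD1 and responds to hypoxia, glucocorticoids and the factor ATF4 as well as to p53 (NCBI gene 74747; chromosome 10, 59949669 to 59951834), stood at 55.4, 50.9 and 52.0 FPKM against 84.0, 90.9 and 93.4. It rose 1.7-fold, with a log2 change of 0.75 ± 0.06 (SE; limma adjusted p = 2.83e-05). Ddit4l, which encodes REDD2 (NCBI gene 73284; chromosome 3, 137621612 to 137628333), stood at 192, 205 and 196 FPKM against 37.3, 39.2 and 42.7. The paralogs exchanged rank. Ddit4l had the highest level of all 36 genes in the DMSO group and the fifth highest with busulfan, while Ddit4 went from the third to the first. Ddit4l fell 4.98-fold, with a log2 change of -2.29 ± 0.06 (SE; limma adjusted p = 6.71e-08), and 126 tested genes fell further. Within a library the ratio of Ddit4 to Ddit4l was 0.248 to 0.288 in the DMSO group and 2.19 to 2.32 in the busulfan group. The summed FPKM of the 5 genes was 287 to 296 and 168 to 182, set by Ddit4l.

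Sesn2, the sestrin also induced by ATF4, stood at 10.2, 11 and 10.3 FPKM against 14.6, 15.6 and 18.3 and rose 1.54-fold (limma adjusted p = 0.00101). Sesn1, the sestrin most tied to p53, stood at 20.0, 18.8 and 18.5 FPKM against 21.4, 21.3 and 20.5. Its groups did not overlap, but the 1.1-fold difference did not pass (limma adjusted p = 0.0774); it passed after quantile normalization (limma adjusted p = 0.0184). Sesn3, a FOXO target, stood at 9.88, 9.43 and 10.4 FPKM against 10.4, 8.24 and 7.52 and did not pass (limma adjusted p = 0.226). That gene passed without busulfan replicate 1, the highest of its busulfan libraries (limma adjusted p = 0.0202).

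**Figure D4:**
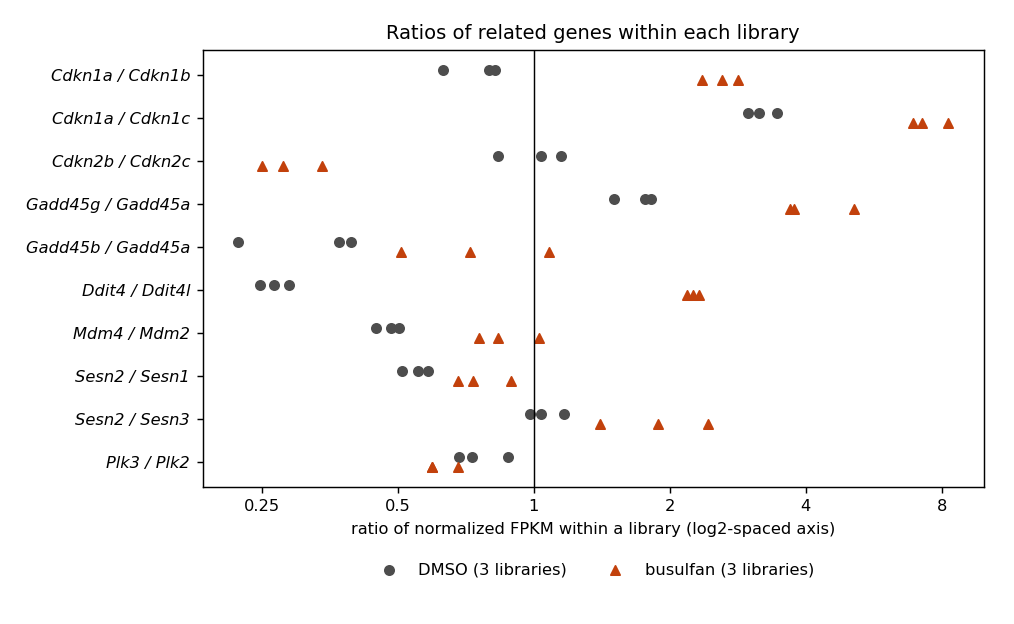
Ratio of normalized FPKM of 10 pairs of related genes within each library (log2-spaced axis), circles for 3 DMSO and triangles for 3 busulfan libraries; the line marks equal levels. The ratio of Ddit4 to Ddit4l lies at 0.248 to 0.288 in DMSO and 2.19 to 2.32 with busulfan, and that of Cdkn1a to Cdkn1b crosses 1 as well.

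If each library was scaled by a single factor, which is unknown here, a ratio of genes within a library does not depend on that scaling. For 10 such ratios, chosen after the values were seen, the difference between the groups was tested with a two-sided exact permutation test of the log2 ratio. It ranged from -1.8 (Cdkn2b to Cdkn2c) to 3.08 (Ddit4 to Ddit4l) on the log2 scale. The exact permutation p was 0.1 for all 10, also after adjustment over the 10, which is the smallest value that 3 against 3 libraries allow, so the design cannot reach 0.05 in this test.

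Of the DNA synthesis genes 1 rose. Polk, which encodes the translesion polymerase κ, able to copy past bulky minor-groove adducts, stood at 2.71, 2.93 and 2.96 FPKM against 4.42, 4.35 and 3.96 (1.48-fold, limma adjusted p = 0.00296). Rrm2b, which encodes the p53-inducible subunit of ribonucleotide reductase used outside S phase, stood at 12.0, 13 and 12.3 FPKM against 11, 11.2 and 10.8. Its libraries separated downward by 1.13-fold without passing (limma adjusted p = 0.0541), and with a minimum mean of 5 FPKM it passed (limma adjusted p = 0.046). The processed pseudogene Gm8616 matches Rrm2b over 1051 bases at 96.1% identity, and the antisense gene Gm49085 shares 734 bases of its exons.

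The remaining loci were low. Gdf15, a secreted stress cytokine of the TGF-β family, stood at 0.174, 0.322 and 0.161 FPKM against 0.36, 0.576 and 0.565, about 3 to 7 fragments against 7 to 12. It was below the level needed for testing, and with no filter its limma adjusted p was 0.0341. Pvt1, a long noncoding RNA next to Myc, stood at 0.107, 0.346 and 0.123 FPKM against 0.221, 0.278 and 0.231, with overlapping groups, and was not tested either. Ano3, of the anoctamin family of membrane proteins, stood at 3.95, 2.69 and 3.75 FPKM against 3.6, 3.75 and 3.92 (limma adjusted p = 0.519). Muc15, a mucin gene on the opposite strand, shares 61 bases of exon with Ano3 and stood at 621 ± 41.8 and 804 ± 26.4 FPKM. Without a known strand setting, reads of Muc15 and Ano3 cannot be told apart there, so the level of Ano3 is uncertain.

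**Figure D5:**
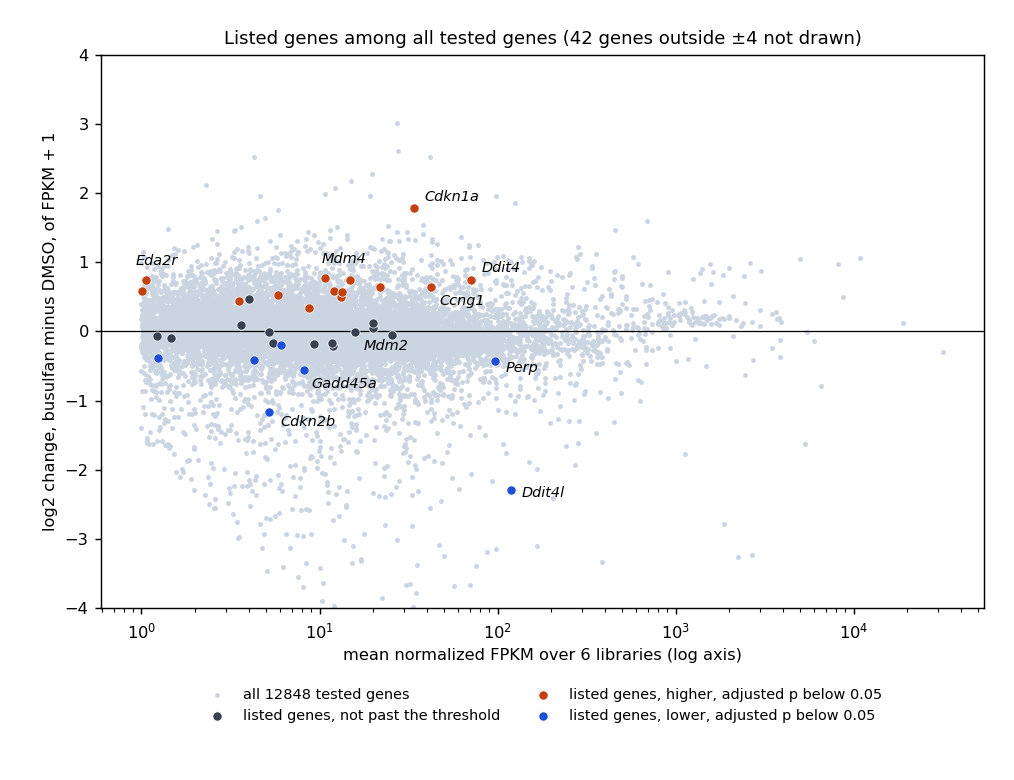
Log2 change of FPKM + 1, busulfan minus DMSO, against mean normalized FPKM (log axis) for all 12848 tested genes (grey) and the 34 tested members of the list (coloured by call); 42 genes outside ±4 are not drawn. Cdkn1a stands at 1.78 near the upper edge of the cloud, Ddit4l at -2.29 with 126 genes falling further, and most of the others lie within 1 of 0.

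Ranks by level changed for most genes of the list, though not for all, with the largest move that of Cdkn2b, from rank 20 to 29. Perp kept rank 2 and Ccng1 rank 4. In the DMSO libraries Ddit4l, Perp, Ddit4, Ccng1 and Trp53 were the 5 most abundant mRNAs of the list, at means of 198, 111, 52.8, 32.7 and 26.1 FPKM, and no neighbours among these 5 overlapped in their libraries. In the busulfan libraries the order was Ddit4, Perp, Cdkn1a, Ccng1 and Ddit4l, at 89.4, 82.6, 52.9, 51.7 and 39.7 FPKM. There Ddit4 overlapped Perp (84.0 to 93.4 and 80.3 to 85.0 FPKM) and Cdkn1a overlapped Ccng1 (49.9 to 57.2 and 49.3 to 55.1 FPKM), so those neighbours are not ordered beyond their spread. Cdkn1a had held rank 10 in DMSO.

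Further p53 targets outside the list gave no preponderance of rises. Of 49 such genes 45 were tested, of which 10 rose, 8 fell and 27 did not pass. Their median log2 change was -0.01. The 18 calls are a share close to that of all tested genes (42.8%). Ephx1, the microsomal epoxide hydrolase, rose 2.07-fold, from 35.2 ± 1.77 to 72.8 ± 2.66 FPKM (limma adjusted p = 3.61e-06). Tgfa, which encodes a ligand of the EGF receptor, stood at 3.16 ± 0.435 and 5.73 ± 0.325 FPKM (1.81-fold, limma adjusted p = 0.000655). The largest falls were those of Trp53i11, from 33.8 ± 3.43 to 5.9 ± 0.485 FPKM (limma adjusted p = 4.84e-07), and of Igfbp3, a carrier of insulin-like growth factors, from 20.5 ± 2.32 to 8.32 ± 2.02 FPKM (limma adjusted p = 0.000336).

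Kinases, ligases and cofactors acting on p53 were likewise divided. Of 45 tested, 9 rose, 7 fell and 29 did not pass (median log2 change -0.01). That is 35.6% past the threshold, against 42.8% of all tested genes. The shares were 20.0% higher and 15.6% lower, against 20.8% and 22.1%. The 4 with the largest changes past the threshold were all lower. They were the lysine methyltransferase gene Setd7 (8.2 ± 0.395 to 4.21 ± 0.24 FPKM), the checkpoint clamp gene Rad9a (28.7 ± 0.463 to 17.5 ± 0.904 FPKM), the acetyltransferase gene Kat2b (17.0 ± 1.39 to 10.9 ± 1.11 FPKM) and Trp63.

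Of 31 tested genes of the G1 machinery that the inhibitors act on, 4 rose and 4 fell, with 2 higher when busulfan replicate 2 was left out. That is 25.8% past the threshold, against 42.8% of all tested genes, and 12.9% lower, against 22.1%. Among the 4 that fell were genes of D-type cyclins, which carry growth factor input to CDK4 and CDK6. Ccnd1 went from 73.7 ± 3.35 to 33.0 ± 3.6 FPKM (limma adjusted p = 1.51e-05) and Ccnd3 from 45.8 ± 1.92 to 22.8 ± 1.23 FPKM (limma adjusted p = 7.01e-06). Cdk6 rose from 2.61 ± 0.361 to 4.2 ± 0.307 FPKM (limma adjusted p = 0.00368), and the S phase cyclin gene Ccna2 stood at 3.26 ± 0.265 and 2.06 ± 0.575 FPKM (limma adjusted p = 0.0241). Mitotic genes were mostly lower: 17 of 21 tested fell, 4 were not past the threshold and none was higher, and the median log2 change was -0.57. Their share lower was 81.0%, against 22.1% of all tested genes. Of the listed genes with related roles, Ckap2 was lower, Gtse1 did not pass and Psrc1 was higher. Without DMSO replicate 2 the count was 11, and 1 of the mitotic genes reached a mean of 5 FPKM. Endothelial and fibroblast markers were lower in the same libraries, with the summed levels given above.

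Of 31 tested genes of the mTORC1 pathway on which sestrins and REDD proteins act, 9 rose, 4 fell and 18 did not pass (median log2 change 0.05). That is 41.9% past the threshold, against 42.8% of all tested genes. The shares were 29.0% higher and 12.9% lower, against 20.8% and 22.1%. The Rag GTPase genes Rragd and Rragb rose 1.66-fold and 1.59-fold, to 6.73 ± 0.19 and 7.36 ± 0.369 FPKM. Tsc1, which encodes a subunit of the TSC complex, rose from 12.1 ± 0.564 to 16.9 ± 0.034 FPKM (limma adjusted p = 0.000382), and Eif4ebp1, which encodes a translational repressor phosphorylated by mTORC1, from 20.6 ± 0.55 to 28.4 ± 3.61 FPKM (limma adjusted p = 0.0041).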

How the data were processed

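RNA was sequenced from 3 DMSO and 3 busulfan libraries made with a stranded mRNA kit, per the labels' protocols. Values are normalized FPKM as deposited by the authors in a single table whose header gives that unit. The submitters' processing notes list TopHat2 2.1.1, Cufflinks 2.2.1 and mm10. How libraries were scaled to each other, the annotation and the strand setting are unknown here. Counts were not used here, so no count test was run. After a filter keeping means of 1 FPKM or more, log2(FPKM + 1) was compared by limma 3.58.1 (R 4.3.3, mean-variance trend, all 6 libraries) and adjusted by Benjamini-Hochberg at 0.05. The script was tested on simulated data. Log2 changes are busulfan minus DMSO and understate the change of low genes, and folds are ratios of group means.

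Positions and shared exons came from GENCODE M21 (GRCm38, also called mm10), matched by symbol. Similar transcripts were searched with BLAST 2.17.0 (at least 95% identity over 200 bases). Depth was estimated from the spacing of values below 0.5 FPKM and from 165 single-transcript genes over 3000 bases. Only 31 of these lay in the most frequent bin, so depth is rough, and it carries the authors' unknown scaling. All 36 genes are named, and from each other list up to 4 with the largest changes past the threshold. Genes outside these rules (Gpx5, Clu, Lcn5, Krt5, Acta2, Muc15 and E230016M11Rik) were named after their values were seen. The genes and lists were chosen with earlier results of these data known, so no set test or p over a list is given. A planned comparison of protein sequences was not made.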

Additional observations from a re-analysis of the deposited data

How the results depend on the processing

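Under 14 alternatives, 11 to 15 of the listed genes were higher and 5 to 7 lower, and 4405 to 5531 genes in all passed. Without 1 library these counts were 12 to 14, 5 to 6 and 4447 to 5046. Of the 21 genes that passed, 18 passed under every alternative that tested them, 13 higher and 5 lower; Cdkn2c, Plk2 and Ckap2 are the exceptions. Psrc1 and Eda2r, counted among the 13, were below the filter in some settings and tested in 10 and 11 alternatives. None changed direction. Cdkn1a kept a log2 change of 1.69 to 1.85 (limma adjusted p of 1.62e-06 to 0.00015) and Ddit4l one of -2.34 to -2.19. With replicate number as a block, 14 listed genes were higher and 5 lower, and 4627 genes passed in all. Same-numbered libraries did not deviate together (correlations -0.18, -0.025 and -0.175), so no pairing by replicate number was seen. The labels do not say what the numbers mean, and a shared batch was not tested. With fewer genes left by a minimum mean of 5 FPKM, 11 of 25 tested members were higher and 6 lower. Quantile normalization shifted the median of all genes to 0.037 and turned the background from 20.8% higher and 22.1% lower to 25.1% and 17.9%, beside 15 listed genes higher and 7 lower. Depth limits Gdf15, Pvt1, Psrc1, Eda2r, Gtse1 and Ckap2 most.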

Other observations

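Genes of the integrated stress response, the pathway of ATF4 that can also raise Sesn2, Ddit4 and Gdf15, moved both ways. Of 26 tested, 8 rose, 9 fell and 9 did not pass (median log2 change -0.05). That is 65.4% past the threshold, against 42.8% of all tested genes. The shares were 30.8% higher and 34.6% lower, against 20.8% and 22.1%. The largest changes past the threshold were falls. Vldlr, which encodes a lipoprotein receptor, went from 10.6 ± 0.915 to 1.52 ± 0.17 FPKM (limma adjusted p = 9.14e-07) and Cebpb, which encodes a bZIP transcription factor, from 30.9 ± 1.05 to 9.81 ± 1.62 FPKM (limma adjusted p = 1.26e-05). The amino acid transporter genes Slc7a1 and Slc7a5 fell to 0.50 and 0.51 times their DMSO level, Slc7a5 from 554 ± 34.8 to 283 ± 8.72 FPKM.

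Of 22 tested immediate early genes, the class to which Btg2, Plk2, Plk3 and Gadd45b also belong, 2 rose and 5 fell (1 higher without DMSO replicate 1, DMSO replicate 2 or busulfan replicate 2, and 3 lower on omission of busulfan replicate 2, of busulfan replicate 3 or of DMSO replicate 3). In the main fit 31.8% of the 22 passed, against 42.8% of all tested genes, and 22.7% were lower, against 22.1%. Ier3 went from 25.1 ± 4.13 to 6.81 ± 0.632 FPKM (limma adjusted p = 1.48e-05), Ier2 from 33.2 ± 2.72 to 17.0 ± 1.85 FPKM and Fosl2 from 7.72 ± 0.281 to 14 ± 1.32 FPKM. Of 21 tested FOXO targets 3 rose and 3 fell (1 higher without DMSO replicate 3, and 1 lower without any 1 library except busulfan replicate 1, which left 2). The main fit thus called 28.6% of the FOXO targets, against 42.8% of all tested genes. The replicate block left 1 each way, and quantile normalization gave 5 higher. Cited2 and Bcl2l11 were 1.3-fold and 1.29-fold higher, and Tnfsf10 and Cat were at 0.709 and 0.821 times their DMSO level. Of 13 glucocorticoid-responsive genes 3 rose and none fell (5 higher without DMSO replicate 3, and 2 without any other 1 library), led by Zbtb16, which went from 1.31 ± 0.0938 to 2.39 ± 0.395 FPKM, and including Fkbp5, from 173 ± 5.44 to 208 ± 2.63 FPKM (limma adjusted p = 0.00218). Those 3 are 23.1% of the 13, close to the 20.8% of all tested genes that were higher.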
